A study of Rattus with 4 samples.

Results

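The genes of 10 factors that make, bind and measure the poly(A) tail of RNA were followed in RNA precipitated with an antibody to the nuclear protein NONO (NONO IP) and in input RNA of cultured rat cardiac cells. They are Papola, Papolg, Pabpn1, Pabpc1, Pabpc4, Pcf11, Sympk, Cpsf6, Cpsf7 and Nudt21, chosen by symbol with earlier results of these data known. All 10 were found among the 13731 genes with counts. Of these, 6 had enough reads for the main test. What was measured is the RNA of each gene, not the protein it encodes.

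Most messenger RNAs are cut downstream of a poly(A) signal and then receive a tail of adenosines. Symplekin (Sympk) is a scaffold of the cutting complex, Pcf11 links cutting to the end of transcription, and Nudt21 with Cpsf6 or Cpsf7 forms cleavage factor I, which steers the choice between alternative ends. The polymerases Papola and Papolg add the tail, Pabpn1 coats it in the nucleus, and Pabpc1 and Pabpc4 bind it in the cytoplasm, where it serves translation and RNA stability.

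There were 2 input libraries, labelled as transfected with empty vector and with no antibody, and 2 NONO IP libraries, labelled as transfected with NONO siRNA and precipitated with anti-NONO. By these labels antibody and knockdown cannot be told apart, and no control antibody library was analysed here. All cells were cultured as a rat cardiac fibroblast line according to the growth protocol, while the titles say H9C2, the name of a myoblast line of rat heart. The labels name Lipofectamine for transfection and give a harvest time for other assays only. Whether replicates were separate cultures is not stated, and the p-values therefore reflect only how much these libraries vary, which may be technical.

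Gene reads summed to between 238776 and 279410 per library, and 3 reads corresponded to between 10.2 and 15.9 CPM, the scale used below (reads scaled to a common library total with TMM factors). The 9 fibroblast markers found by symbol held 38075 input reads and 39711 NONO IP reads, and 10 cardiomyocyte markers held 125 and 166. All reads in this paragraph are unscaled, while on the CPM scale the NONO IP libraries were 1.50 times as large as the inputs. Sums can also hide opposite changes: of the fibroblast markers, Pdgfra had a log2 fold change of 1.04 and Postn of −3.16. Among the cardiomyocyte markers, Myh7 was at −2.82 and Myh6 at −1.26, while Tnnt2 was at 0.57. The 5 smooth muscle markers held 562 and 564 reads in the inputs, against 393 and 386 after precipitation, and 2 endothelial markers held 2 and 3 in sum. Of 11 skeletal myoblast markers 2 were found, with 21 and 7 reads, and 8 macrophage and leukocyte markers held 29 and 6. The targeted gene Nono was read 21 and 9 times in the inputs, against 3 and 3 after precipitation. In a fit with no count filter its log2 fold change was −2.64 (edgeR adjusted p = 0.000772). The part of these differences in the results was not tested. In these bulk libraries, less of a transcript recovered with the antibody, fewer cells with it and less of it per cell cannot be told apart.

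Over all 2920 genes tested with edgeR, 29.8% rose and 26.9% fell after precipitation at an adjusted p under 0.05, with a median log2 fold change of 0.02. Among the 6 factors tested, Papola and Pabpn1 were higher, Pabpc1, Pabpc4 and Sympk were lower, and Pcf11 did not pass, with a median of 0.11. That is 2 higher and 3 lower of 6. Papola and Pcf11 reached the count filter by their NONO IP reads alone and Sympk by its input reads alone, so these counts are a description and no support for a change of the group. In a fit over all 13731 genes with no filter, 8.59% were higher and 4.73% lower. There, 2 of the 10 factors were higher (Papola and Pabpn1) and 1 was lower (Pabpc4).

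**Figure D1:**
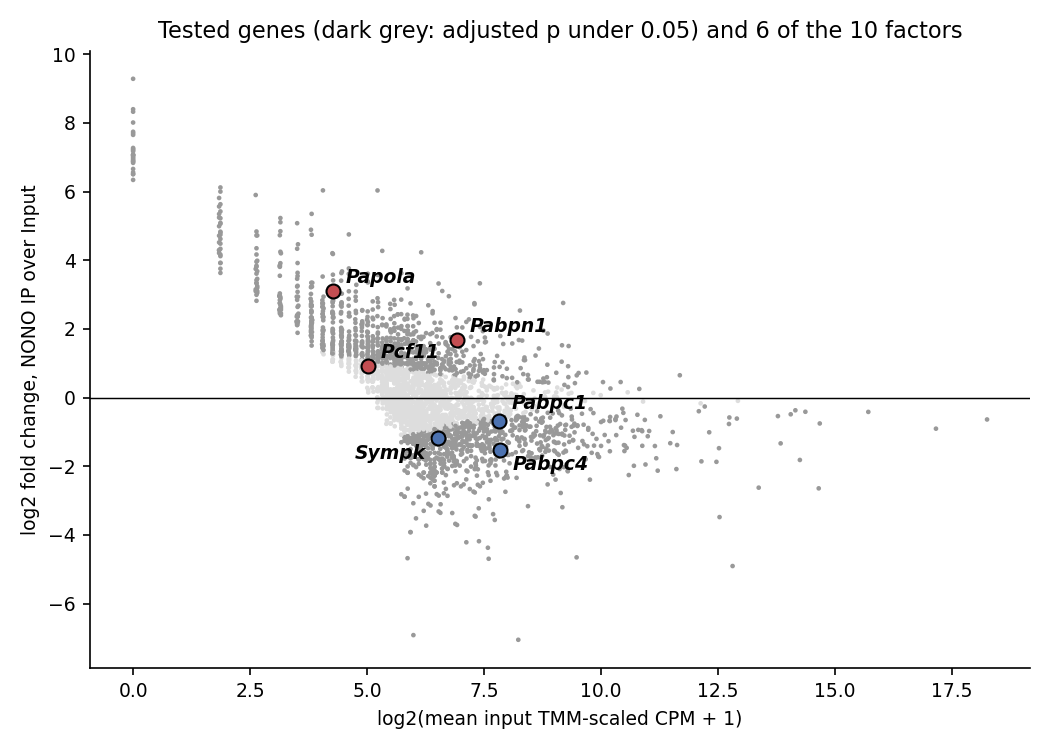
Fitted log2 fold change of NONO IP over input (y axis) against log2 of the mean input CPM plus 1 (x axis) for the 2920 tested genes, dark grey where the adjusted p was under 0.05; a fitted value at an input level of 0 is no measure of size. Coloured points are the 6 tested factors, with Papola at 3.09 and Pabpn1 at 1.67 above 0 and Pabpc1, Sympk and Pabpc4 below it.

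Papola, the main nuclear poly(A) polymerase, had the largest increase of the 6 tested factors. It was read 3 and 4 times in the inputs, against 52 and 40 times after precipitation. Both NONO IP libraries lay far above both inputs. Its level went from 18.3 ± 4.04 to 159 ± 23.5 CPM (SD, n = 2), a log2 fold change of 3.09 (SE 0.41, edgeR adjusted p = 7.39e-06). With no count filter it was 3.31 (edgeR adjusted p = 4.94e-08). With DESeq2 it was 3.13, with a larger SE of 0.73. Leaving out each library in turn gave between 2.88 and 3.31. With only 7 input reads the size is loosely fixed: the ratio of scaled reads was 8.75, with an exact conditional 95% interval of 4.08 to 22.4, which covers counting error only.

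The related polymerase gene Papolg did not share this. It was read 2 times and 1 time in the inputs and not at all in either NONO IP library. Both groups were at or under 3 reads in sum, so no fold is given, and an interval of the scaled ratio reached up to 1.61. Papola made up 7 of the 10 reads of this pair in the inputs and all 92 in the NONO IP, where the exact 95% interval for its share began at 96.1%. In the inputs that interval ran from 34.8% to 93.3%.

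Pabpn1, the nuclear poly(A)-binding protein gene, was the most abundant of the 10 in the NONO IP. Its reads numbered 20 and 26 in the inputs, against 120 and 101 after precipitation. Each NONO IP library held several times the reads of either input, and the gene passed the count filter in both groups. The level was 120 ± 24.4 CPM in the inputs and 384 ± 32.2 CPM in the NONO IP, a log2 fold change of 1.67 (SE 0.22, edgeR adjusted p = 4.9e-06). It was called under all 15 alternatives, at log2 fold changes between 1.00 on an RPKM scale and 2.43 with an offset for gene length and a replicate block.

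The cytoplasmic poly(A)-binding protein genes moved the other way. Pabpc4 had 42 and 46 reads in the inputs against 22 and 24 in the NONO IP. Every NONO IP value lay below both inputs although the NONO IP libraries held more reads in total. Its level dropped from 230 ± 19.1 to 80.1 ± 7.95 CPM, a log2 fold change of −1.52 (SE 0.26, edgeR adjusted p = 9.65e-05). Leaving out each library gave −1.62 to −1.42, and Pabpc4 was called in all 14 alternatives that tested it.

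Pabpc1, the main cytoplasmic poly(A)-binding protein gene, was read 47 and 40 times in the inputs, against 43 and 38 times after precipitation. The raw reads of the groups overlapped, and only after scaling did the NONO IP lie below the inputs, at 141 ± 6.96 against 227 ± 21.5 CPM. That is a log2 fold change of −0.69 (SE 0.23, edgeR adjusted p = 0.0169). This call was the least stable of the 5. It ended with an offset for gene length (−0.05, edgeR adjusted p = 0.877), with library totals as the scale (−0.23, edgeR adjusted p = 0.421), with no count filter (−0.47, edgeR adjusted p = 0.264), with DESeq2 (adjusted p = 0.175) and without Input replicate 1 (−0.60, edgeR adjusted p = 0.114). The median tested gene was 2.21 times as long as Pabpc1, from the ratio of counts to RPKM.

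**Figure D2:**
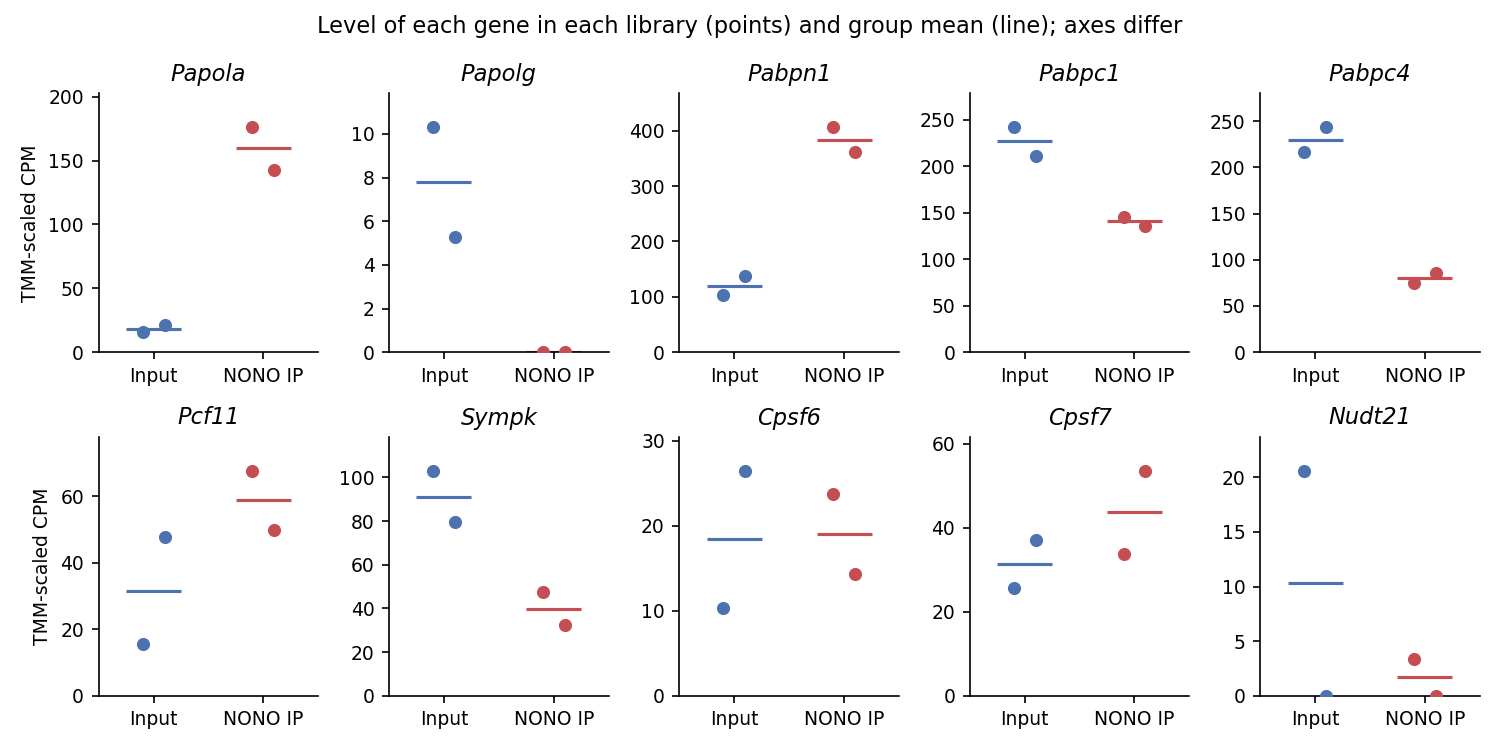
TMM-scaled CPM (y axes, which start at 0 and differ between panels) of each factor in the 2 input and 2 NONO IP libraries, points for libraries and lines for group means. Papola and Pabpn1 are higher in both NONO IP libraries, Pabpc1, Pabpc4 and Sympk lower, and the inputs of Pcf11, Cpsf6 and Nudt21 are spread widely.

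Ratios within a library do not depend on how the libraries are scaled. Pabpn1 made up 29.9% and 39.4% of the joint reads of Pabpn1 and Pabpc1 in the inputs, against 73.6% and 72.7% after precipitation. Summed over each group, its share was 34.6% (exact 95% interval 26.6% to 43.3%) in the inputs and 73.2% (67.8% to 78.1%) after precipitation. The nuclear binder was thus the minor partner in both inputs and the major one in both NONO IP libraries. Papola made up 7.45% (3.05% to 14.7%) of its joint reads with Pabpc1 in the inputs and 53.2% (45.5% to 60.8%) in the NONO IP. Shares of reads are not corrected for gene length. In RPKM, which is per length, Papola stayed below Pabpc1. It was at 0.0285 and 0.0446 times Pabpc1 in the inputs and 0.539 and 0.469 times in the NONO IP. Pabpn1 was at 0.497 and 0.760 times Pabpc1 in the inputs and 3.26 and 3.11 times in the NONO IP. These 2 pairs were picked after the values were seen. Between the cytoplasmic paralogs the shift was smaller. Pabpc1 held 52.8% and 46.5% of the reads of Pabpc1 and Pabpc4 in the inputs, against 66.2% and 61.3% after precipitation, and the intervals of the summed shares were 42.1% to 57.4% and 54.8% to 72.1%. The log2 read ratio of Pabpc1 to Pabpc4 was 0.83 higher in the NONO IP (SE 0.34 from counting alone), and 0.65 to 1.02 higher with each library left out. The intervals cover counting error only, since reads carry no molecular identifiers, and the difference of the shares was not tested across libraries.

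**Figure D3:**
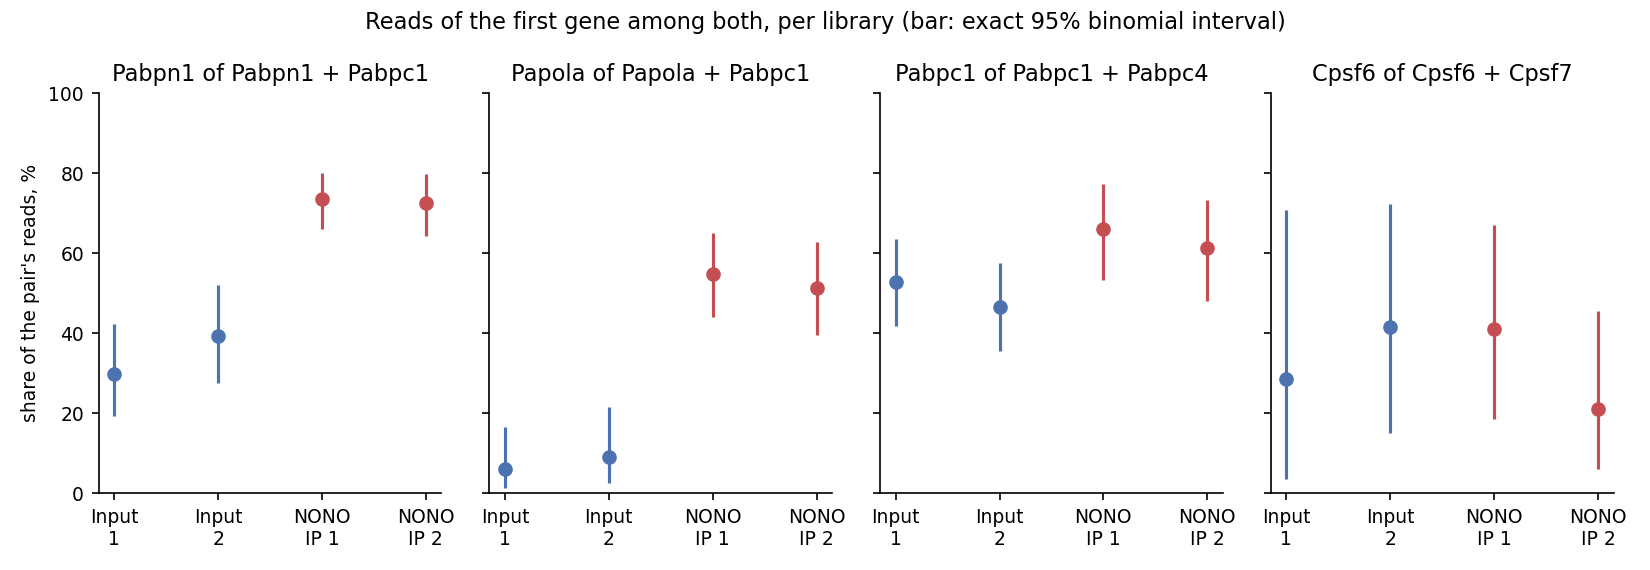
Share of a pair's reads that belongs to the first gene (y axis, percent) in each library, with exact 95% binomial intervals as bars. The shares of Pabpn1 and Papola beside Pabpc1 are higher in both NONO IP libraries (73.6% and 72.7% for Pabpn1), while the intervals of Cpsf6 beside Cpsf7 are wide in every library.

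Of the cutting machinery, Sympk was lower in the NONO IP. Reads numbered 20 and 15 in the inputs, against 14 and 9 after precipitation, which is 91.2 ± 16.7 against 39.8 ± 10.8 CPM. The NONO IP values lay below both inputs. Its log2 fold change of −1.18 (SE 0.39, edgeR adjusted p = 0.0149) passed the threshold. That call ended with library totals (−0.72, edgeR adjusted p = 0.118), with no count filter (−0.97, 0.121), with DESeq2 (adjusted p = 0.161) and without Input replicate 1 (−0.99, edgeR adjusted p = 0.0971) or NONO IP replicate 2 (−0.94, 0.0885).

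Pcf11 was read 3 and 9 times in the inputs, against 20 and 14 times after precipitation. The inputs differed widely from each other, and the log2 fold change of 0.90 (SE 0.48, edgeR adjusted p = 0.119) did not pass. A single input library decided this value. Without Input replicate 2 it was 1.89 (edgeR adjusted p = 0.0361), and without Input replicate 1 it was 0.30 (edgeR adjusted p = 0.662). It also passed with library totals as the scale (1.36, edgeR adjusted p = 0.0204).

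**Figure D4:**
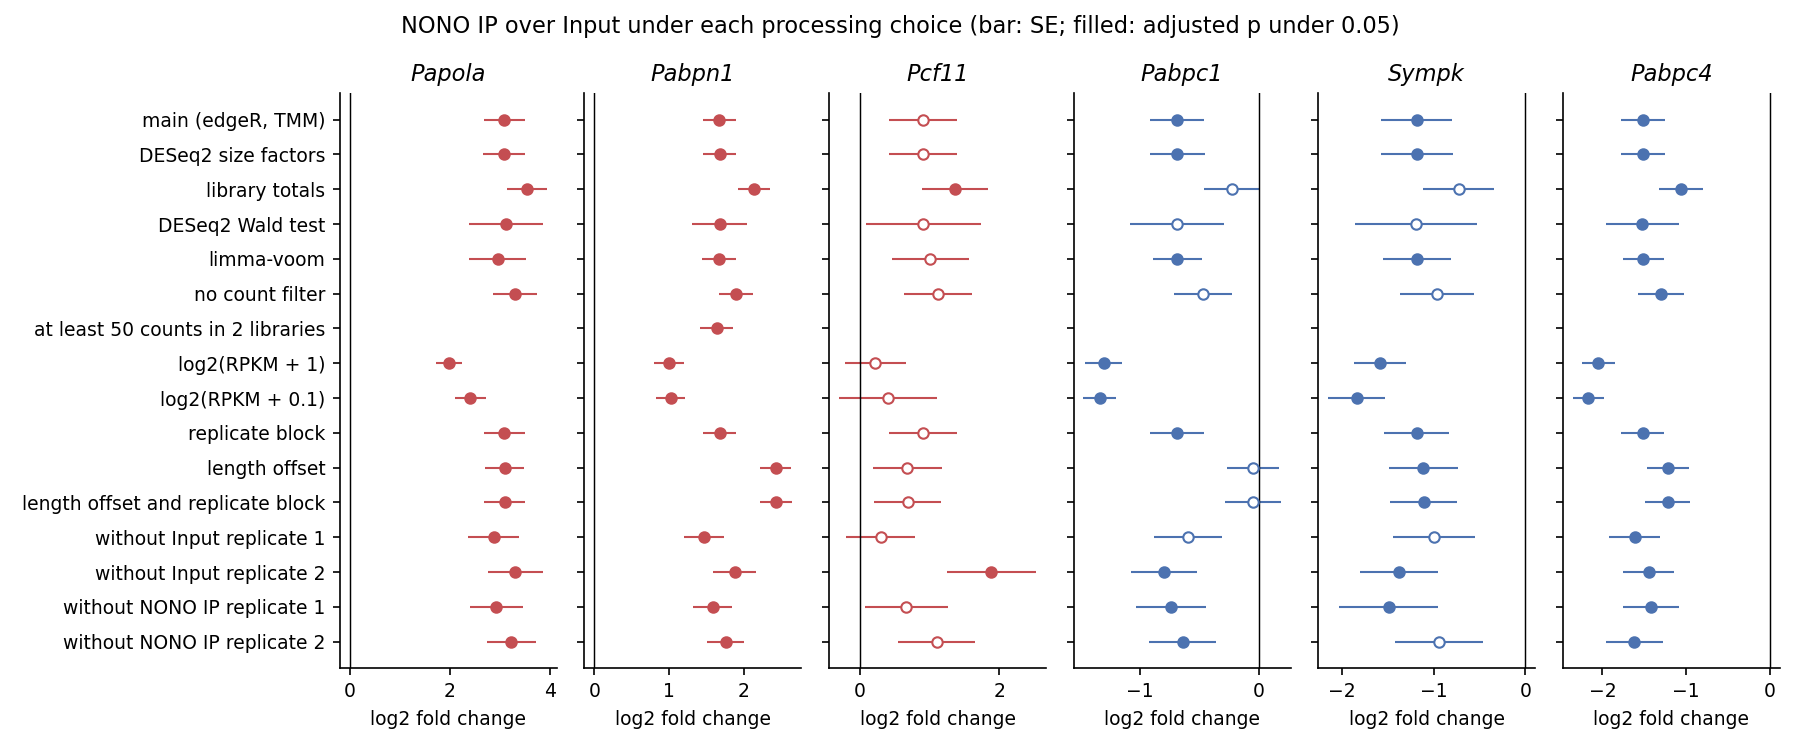
Log2 fold change of NONO IP over input (x axes, bars for SE) of the 6 tested factors under the main test and 15 alternatives, filled where the adjusted p was under 0.05; a gap means that the gene was not tested. Papola, Pabpn1 and Pabpc4 are filled wherever they were tested, and Pabpc1 comes nearest to 0 at −0.05 with the length offset.

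The 3 genes of cleavage factor I were too shallow for the main test. Cpsf7 was read 5 and 7 times in the inputs, against 10 and 15 times after precipitation, a scaled ratio of 1.39 with an exact interval of 0.672 to 3.03. Cpsf6, its alternative partner, had 2 and 5 against 7 and 4 reads, a ratio of 1.05 (0.370 to 3.18). Nudt21, the subunit that recognises the RNA, had 4 and 0 input reads, against 1 and 0 after precipitation, a ratio of 0.166 (0.00338 to 1.68). In each case the interval spans 1, and a difference was not detectable at this depth. In the fit with no filter the edgeR adjusted p-values were 0.534 for Cpsf7, 0.832 for Cpsf6 and 0.502 for Nudt21. By reads, Cpsf6 made up 36.8% (exact 95% interval 16.3% to 61.6%) of the Cpsf6 and Cpsf7 pair in the inputs and 30.6% (16.3% to 48.1%) in the NONO IP.

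Levels of different genes can be compared only per length, here as the deposited RPKM. In the inputs Pabpc1 was highest, at 52.9 ± 4.68 RPKM (SD, n = 2). Pabpc4 at 35.1 ± 3.15 and Pabpn1 at 32.8 ± 6.87 came next, and their values overlapped. Sympk followed at 11.1 ± 1.97 and Cpsf7 at 3.23 ± 0.841. Papola (1.91), Pcf11 (1.63), Nudt21 (1.3), Papolg (1.07) and Cpsf6 (0.67) came last, and neighbours in this order overlapped. In the NONO IP the order was different. Pabpn1 led at 66.0 ± 3.49 RPKM, ahead of Pabpc1 at 20.7 ± 0.382 and Papola at 10.5 ± 1.22. Pabpc4 was at 7.76 ± 1.01, below Papola in both libraries. Sympk at 3.06 and Cpsf7 at 2.85 overlapped, followed by Pcf11 at 1.91, whose higher value met the lower one of Cpsf7 at 2.15, and by Cpsf6 at 0.435. Nudt21 was listed at 0.27 and 0.0 and Papolg at 0.0 in both. The library total that RPKM was scaled to was 2.38 times that of the inputs in the NONO IP, so these 2 orders hold within a group and RPKM levels are not set against each other across groups.

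On that RPKM scale, as log2(RPKM + 1), a scale that understates changes of low genes, the median of 7576 genes was −0.61. The 5 factors called in the main test kept their direction and their call by limma, at 1.98 for Papola (adjusted p = 0.0206), 1.00 for Pabpn1 (0.0385), −1.31 for Pabpc1 (0.0172), −2.05 for Pabpc4 (0.0120) and −1.58 for Sympk (0.0310). Set against the median gene, the first 2 lay further above it and the other 3 nearer to it than these values read.

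Some of the genes share ground with others. In the RefSeq table of the GRCr8 assembly, used only for names and neighbours, 2 copies of the small nucleolar RNA SNORA55 lie inside Pabpc4. LOC120103283 was read 0 and 2 times in the inputs, against 16 and 15 times after precipitation. LOC120103284 was read 0 times and 1 time, against 16 and 9 times. The guests were thus high in the libraries where the host gene was low. Cpsf7 overlaps Sdhaf2, a gene of succinate dehydrogenase assembly with 5 and 1 input reads and 1 and 1 in the NONO IP. How reads were divided between overlapping genes is not given in the sources used here, nor whether reads from introns were counted.

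The genes nearest in pattern to Pabpn1, by Euclidean distance of log2 CPM over the 4 libraries among 2726 candidates, were Garre1 (distance 0.31), Zbtb7a (0.43) and Dnmt3a (0.51). Those nearest to Pabpc4 were Pdia3 (0.21), Arpc1b (0.25) and Cdc42bpa (0.26).

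Around the 10 factors, 114 other genes of tail metabolism, RNA 3′ ends and export were found by symbol, of which 28 were tested. Of these 10 were higher, 3 lower and 15 did not pass, beside 29.8% higher and 26.9% lower over all tested genes. Their median log2 fold change was 0.44 against 0.02. Of the 10 higher genes, 6 reached the count filter by their NONO IP reads alone. Of the 3 lower genes, Eif4g2 and Ints1 reached it by their input reads alone. Without Input replicate 2, or without NONO IP replicate 1, 6 genes were higher instead of 10. Tent4b, Cnot6l, Pan3, Snrnp70, Eif4g1, Eif4g2 and Ints1, described next, were called in each of the 15 alternatives that tested them. With no filter the median of the 114 genes was −0.04 against 0.30 over all genes, and 10 were higher and 4 lower, beside 8.59% and 4.73% over all genes.

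No further gene of the cutting machinery was tested, out of 13 others found. Cstf2, a subunit that reads the sequence downstream of the cut, fell from 13 and 7 reads to 1 and 3 in the fit with no filter (log2 fold change −2.61, edgeR adjusted p = 0.00477), and was named after its values were seen. Among other nucleotidyltransferases, Tent4b, a noncanonical poly(A) polymerase that marks nuclear RNA for decay, rose from 6 and 7 to 45 and 39 reads (2.09, SE 0.36, edgeR adjusted p = 9.38e-05). Its paralog Tent4a had 13 and 9 against 20 and 11 reads (−0.09, SE 0.42, edgeR adjusted p = 0.865).

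The 4 deadenylase genes tested, whose products shorten the tail, were all higher, beside 29.8% of all tested genes. All 4 reached the filter by their NONO IP reads alone. Cnot6l, a catalytic subunit of the CCR4-NOT complex, went from 5 and 3 to 64 and 66 reads (log2 fold change 3.40, SE 0.37, edgeR adjusted p = 5.98e-07). Pan3, the adaptor of the PAN2 nuclease, went from 5 and 5 to 56 and 52 (2.82, SE 0.36), and Cnot2, a CCR4-NOT subunit, from 4 and 1 to 36 and 27 (3.02, SE 0.52). Cnot2 lost its call on the RPKM scales (limma adjusted p = 0.0529 and 0.0954 with pseudocounts of 1 and 0.1). Cnot6, the paralog of Cnot6l, was the fourth (1.75, edgeR adjusted p = 0.0118), and lost its call without Input replicate 2 (0.116) or NONO IP replicate 1 (0.135), with DESeq2 (0.160), with limma-voom (0.0544) and on the RPKM scales (0.214 and 0.236). Of the 17 deadenylase genes found, these 4 were the ones called with no filter too, and the median of the 17 was 0.20 there, near that of all genes.

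Of 13 tested genes for partners of poly(A)-binding protein or relatives of these partners, 3 rose, 2 fell and 8 did not pass. The eIF4G family genes were divided. Eif4g1, which binds Pabpc1 protein in the translation initiation complex, fell from 90 and 105 to 62 and 58 reads (−1.29, SE 0.17, edgeR adjusted p = 7.54e-06), and Eif4g2, a relative that lacks the part binding poly(A)-binding protein, fell from 27 and 35 to 8 and 11 (−2.27, SE 0.35). Eif4g2 reached the filter by its input reads alone. Eif4g3 went from 46 and 34 to 91 and 82 reads (0.53, SE 0.20, edgeR adjusted p = 0.0320). Larp1, a binder of ribosomal protein mRNAs, changed by 0.44 (SE 0.14) and Atxn2, the ataxin-2 gene, by 1.08 (SE 0.42). With DESeq2 the adjusted p was 0.172 for Larp1, 0.230 for Atxn2 and 0.242 for Eif4g3. Atxn2 reached the filter by its NONO IP reads alone, and its limma-voom adjusted p was 0.0547. On the log2(RPKM + 1) scale Larp1 and Eif4g3 were at −0.21 and −0.11, above the median gene at −0.61, and Larp1, Atxn2 and Eif4g3 were not called there (limma adjusted p = 0.355, 0.521 and 0.754). Without Input replicate 2 the edgeR adjusted p was 0.142 for Larp1, 0.289 for Atxn2 and 0.299 for Eif4g3, and without NONO IP replicate 1 it was 0.0650, 0.208 and 0.0804; without Input replicate 1 Larp1 was at 0.0626. With the offset for gene length Eif4g3 was at 0.15 (edgeR adjusted p = 0.548), and Atxn2 kept its size at 1.05 (0.0568, or 0.0227 with the replicate block as well). Tnrc6a, of the miRNA silencing complex, was at −0.90 (edgeR adjusted p = 0.0617).

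Of the 4 tested genes that feed nuclear RNA to the exosome, 0 passed with DESeq2, limma-voom or edgeR on the TMM scale, and 0 had an unadjusted edgeR p under 0.05. Zc3h18 was at 0.73 (edgeR adjusted p = 0.0832) and passed with library totals as the scale (1.19, edgeR adjusted p = 0.00676), where the median gene lay at 0.48. In the main test Srrt was at −0.40, Rbm26 at −0.19 and Zfc3h1 at −0.12. Among the Integrator and termination genes, Ints1, the largest Integrator subunit, fell from 33 and 32 to 5 and 11 reads (−2.59, SE 0.37, edgeR adjusted p = 1.55e-05). Ints1 reached the filter by its input reads alone. Zc3h4, which restrains noncoding transcription, rose by 0.98 (SE 0.33, edgeR adjusted p = 0.0173, or 0.0812 with the length offset). With DESeq2 the adjusted p of Zc3h4 was 0.151. It was at 0.139 without Input replicate 1, 0.0708 without Input replicate 2 and 0.193 without NONO IP replicate 2. Scaf4 and Scaf8 were at 0.44 and 0.18 without passing. Snrnp70, a gene of the U1 particle, which holds back premature cutting and tailing, rose from 58 and 58 to 316 and 242 reads (1.68, SE 0.15, edgeR adjusted p = 5.95e-08). The U1 protein genes Snrpa (3 and 4 against 0 and 1 reads) and Snrpc (2 and 1 against 0 and 0) went the other way. They were too shallow for the main test and did not pass with no filter (edgeR adjusted p = 0.0975 and 0.358). On log2(RPKM + 1) both were called lower (limma adjusted p = 0.0303 and 0.0293), where the median gene lay at −0.61. Of the 15 mRNA export genes found, none had enough reads for the main test.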

How the data were processed

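Input RNA and RNA precipitated with anti-NONO were sequenced from cultured rat cardiac cells, with 2 libraries each. Groups and replicate numbers came from the titles. The authors deposited raw counts, as whole numbers for each gene, and RPKM values, which they had scaled by gene length and a library total. HISAT2, HOMER and mRatBN7.2 appear in the submitters' processing notes. No counting program, strand setting or annotation is stated in the sources used here.

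Groups were compared with the quasi-likelihood test of edgeR (4.0.16, in R 4.3.3), with TMM scaling on genes kept by filterByExpr, which hold 91.1% of counts and at least 23 reads each. P-values were adjusted by Benjamini-Hochberg over all tested genes, with a threshold of 0.05. CPM are reads scaled to a common total of the tested genes with TMM factors. SE is the log2 fold change over the root of F. It may be too narrow for genes with few reads. With DESeq2 the SE was 0.73 for Papola against 0.41, and 0.37 for Pabpn1 against 0.22. The test was checked on simulated data, with changes only in genes deeper than Sympk and Pcf11 and in fewer genes than were called here. The simulation gave all genes the same dispersion and raised as many genes as it lowered. That check does not cover shallower genes or other dispersions. Ratios of scaled reads have exact conditional 95% intervals.

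Alternatives were DESeq2 size factors, library totals, DESeq2 (1.42.0), limma-voom (3.58.1), no filter, a filter of 50 counts in 2 libraries, log2(RPKM + 1) or log2(RPKM + 0.1) with limma (genes at 1 RPKM or more in 2 libraries), a replicate block, a loess length offset (span 0.5) without and with the block, and each library left out, with the tested genes kept. Relative length is counts over RPKM, scaled between libraries on 461 genes with at least 30 counts in each. The factors and lists were chosen with earlier results of these data known. From each list, up to 3 genes with the smallest adjusted p in each direction were named, and for likeness the 3 nearest genes with a symbol that is not a placeholder. Protein and promoter sequences were not used here.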

Additional observations from a re-analysis of the deposited data

How the results depend on the processing

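Papola and Pabpc4 were called in all 14 alternatives that tested them and Pabpn1 in all 15, while Pabpc1 was called in 8 of 14, Sympk in 9 of 14 and Pcf11 in 2 of 14. No direction turned for these 6 genes. The number of lower factors was 3 in the main test and 1 with library totals, with DESeq2 and with no count filter, and ranged from 1 (without Input replicate 1) to 3 when each library was left out. At least 50 counts in 2 libraries left 1 factor, Pabpn1, so that 1 was higher and 0 were lower. Over all genes, 871 were higher and 786 lower in the main test, 453 and 423 with DESeq2, 254 and 247 of 600 genes with at least 50 counts, and 393 and 1425 on log2(RPKM + 1). On log2(RPKM + 0.1) 348 were higher, and with library totals 444 were lower. Higher genes made up 52.6% of calls in the main test, 73.3% with library totals, 64.5% with no filter and 21.6% and 23.3% on the RPKM scales; the median gene lay at 0.48 with library totals and 0.30 with no filter. Of the other tail and 3′ end genes, 10 were higher and 3 lower in the main test, 5 and 3 with DESeq2, 9 and 5 with the length offset, and, with other genes tested, 4 and 10 on log2(RPKM + 1) and 4 and 6 on log2(RPKM + 0.1). Same-numbered libraries did not deviate together (r = 0.05 across genes), and with the replicate block 870 genes were higher and 806 lower and the same 2 and 3 counts of factors were reached. Counting limits Papolg, Nudt21, Cpsf6 and Cpsf7, with 3, 5, 18 and 37 reads in all.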

Other observations

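Genes of the cytoplasmic polyadenylation element-binding proteins, which regulate tail length of stored mRNAs, were looked at after the data were seen and belong to none of the lists. Cpeb2 was read 10 and 16 times in the inputs, against 48 and 44 times after precipitation (log2 fold change 1.23, SE 0.31, edgeR adjusted p = 0.00258). Cpeb4 had 4 and 12 against 32 and 36 reads (1.49, SE 0.40, edgeR adjusted p = 0.00451), and reached the count filter by its NONO IP reads alone. With no filter the values were 1.45 for Cpeb2 (edgeR adjusted p = 0.000788) and 1.71 for Cpeb4 (0.00131). For both genes the groups did not overlap, but the share of all genes for which this held was not counted. Their genes are 3.36 and 3.87 times as long as Pabpc1 on the relative scale, and with the offset for gene length the values were 1.21 for Cpeb2 (edgeR adjusted p = 0.00512) and 1.40 for Cpeb4 (0.0133). Without Input replicate 1 neither passed (edgeR adjusted p = 0.0602 and 0.104), nor with DESeq2 (adjusted p = 0.0591 and 0.0667), nor on log2(RPKM + 1) (limma adjusted p = 0.269 and 0.301) and log2(RPKM + 0.1) (0.271 and 0.325). Cpeb1, with 2 and 2 against 10 and 6 reads, and Cpeb3, with 1 and 3 against 4 and 9, were too shallow for the main test, and did not pass in the fit with no filter (edgeR adjusted p = 0.168 and 0.354).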
